A study of Mus musculus with 8 samples.

Results

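The interferon-stimulated effector genes are the mRNAs by which a cell that has sensed an interferon makes its antiviral proteins. A set of 41 such genes was looked up by symbol on 8 mouse Affymetrix arrays, and 39 of them, out of 18193 genes on the array, had a probe set paired with their symbol alone. Isg15 and Ifi44 had none and are not analysed here. Where a gene had several probe sets, the one with the highest average level was read; all 39 passed the filter on low values, and the members are the same genes in every group. The study set T follicular helper (Tfh) cells, which help B cells in follicles, beside other helper T cell types.

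Each of the 4 groups had 2 arrays, and all cells came from mice of the C57BL/6 strain. The Tfh arrays held splenic CD4+CXCR5+ T cells, sorted 7 days after the mice were immunized with KLH and restimulated for 4 h with anti-CD3. The Th1, Th2 and Th17 arrays held naive CD4 T cells from spleen and lymph nodes of OT-II T cell receptor transgenic mice aged 6 to 8 weeks, cultured for 5 days with OT-II peptide and antigen-presenting cells (APC). Th1 cultures received IL-12 at 10 ng/ml and anti-IL-4, Th2 cultures IL-4 at 10 ng/ml and anti-IFNg, and Th17 cultures IL-6 at 20 ng/ml, TGFb, anti-IL-4 and anti-IFNg. Interferon-gamma was thus neutralized in the Th2 and Th17 cultures and, per the labels, not in the Th1 cultures. No step that removed the APC is given in the sources used here. Source, receptor, stimulation and time changed together between Tfh and the cultured types, so they cannot be told apart. Whether the Tfh and cultured arrays were run and normalized together is not stated in the sources used here. A difference in array handling could therefore not be told apart from these either. Whether the 2 arrays of a group stand for different animals or culture dishes is not in the labels, so p-values here measure only the spread between these samples, which may be technical.

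Levels are the deposited log2 values, on which a difference of 1 is a doubling. The Tfh arrays ran higher as a whole: the median tested gene stood at 8.84 and 8.83 in Tfh and between 7.59 and 7.69 in the 6 cultured arrays. The median difference between Tfh and the mean of the cultured types was 0.84 over 11178 tested genes. The pair of Tfh arrays was also unusually alike, with 11 tested genes over 1 log2 unit apart, against 696 to 1435 within a cultured type. T cell markers were read on every array, some at similar levels and some not. Cd3d lay between 13.21 and 14.29 and Cd2 between 13.05 and 13.56. Cd3e ran from 9.71 in Th2 replicate 1 to 13.03 in Tfh replicate 1. Cd4 ran from 8.61 in Th2 replicate 1 to 11.84 in Tfh replicate 2. The lineage genes followed the labels in part: Cxcr5 was highest in Tfh, Il4 in Th2 and Il17a in Th17, while Ifng, highest in Th1, was also above 10 on every other array. The Th1 lineage gene Tbx21 did not set Th1 apart from Tfh, with 10.66 and 10.59 in Tfh against 10.89 and 9.43 in Th1.

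Interferons act through surface receptors and JAK kinases. Type I interferons lead to a complex with STAT2 and IRF9 that binds the interferon-stimulated response element (ISRE), and the response to interferon-gamma runs through the gamma-activated site (GAS). The products of the responding genes bind or cleave viral RNA, trap virus particles, modify proteins with ISG15, sense nucleic acids or load peptides for presentation. In T cells the same genes respond to interferon in the surroundings, and to interferon-gamma made by the cells themselves.

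The promoters of several members show the element itself. A window from 250 bases before to 50 after the start of each gene, from RefSeq on GRCm38.p6, was at hand for 29 of the 39 members. The ISRE letters, a pair of GAAA blocks with any 2 bases between them, sought on both strands, stood in 13 of these 29 genes (44.8%), against 3.99% of the 27025 genes in the table and 3.44% of its 32851 windows. The same letters followed by a C stood in 10 of the 29, against 0.944% of all genes. The GAS letters TTCNNNGAA, which read the same on both strands and can overlap the ISRE letters, stood in 8 of the 29 (27.6%), against 9.55% of all genes. Stretches of 6 promoters are shown because these genes span the patterns described below: Ifit1, Ifit3 and Rsad2 were low in the cultures, Gbp2 and Gbp3 moved most among the cultured arrays, and Bst2 set Th1 apart from Th2. Each is written 5′ to 3′ on the strand of its gene, with the ISRE letters, or their reverse complement, in capitals.
Ifit1: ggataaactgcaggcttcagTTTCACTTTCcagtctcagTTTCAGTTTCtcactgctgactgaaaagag
Ifit3: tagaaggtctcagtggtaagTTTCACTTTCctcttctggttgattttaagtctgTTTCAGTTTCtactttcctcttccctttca
Rsad2: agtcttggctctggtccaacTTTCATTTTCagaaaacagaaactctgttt
Gbp2: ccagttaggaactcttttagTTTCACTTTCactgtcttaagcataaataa
Gbp3: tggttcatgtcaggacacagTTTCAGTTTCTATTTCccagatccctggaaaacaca
Bst2: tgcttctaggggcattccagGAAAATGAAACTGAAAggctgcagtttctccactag
These stretches lie at chr19:34640765-34640833 (plus strand) for Ifit1, chr19:34583353-34583436 (plus) for Ifit3, chr12:26456543-26456592 (minus) for Rsad2, chr3:142620584-142620633 (plus) for Gbp2, chr3:142559979-142560034 (plus) for Gbp3 and chr8:71537567-71537622 (minus) for Bst2. All lie upstream of the annotated start, and the first capital stands at position -104 in Ifit1, -156 in Ifit3, -120 in Rsad2, -59 in Gbp2, -45 in Gbp3 and -130 in Bst2. Ifit1, Ifit3, Gbp3 and Bst2 hold 2 matches each, which overlap in Gbp3 and Bst2. Of the 13 genes with the letters 9 rose in Tfh, as did 14 of the 16 with a window but no match and 43.7% of all tested genes. A match is a description of the letters and not evidence of binding.

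Most interferon-stimulated genes were higher in Tfh than in the cultured helper cells. A gene was called when its limma Benjamini-Hochberg adjusted p was under 0.05 over all tested genes and its difference was at least 1 log2 unit. Against the mean of Th1, Th2 and Th17, 32 of 39 members were called higher (82.1%), against 43.7% of all tested genes, 0 were called lower, against 6.66%, and 7 were neither. In that direction 0 members also passed at an unadjusted p under 0.05. The median member lay 3.09 log2 units higher in Tfh, against 0.84 for the median gene. The whole-array shift enters these counts: 24 members were called higher in all 3 scalings tried (as deposited, arrays shifted to 1 median, quantile normalization), against 14.3% of all tested genes. For 34 of 39 members both Tfh arrays stood above all 6 cultured arrays, against 60.5% of all tested genes, and for 0 below them, against 13.8%. The members were chosen by name with earlier results of these data known, so these counts describe them and are not a test of the list.

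**Figure D1:**
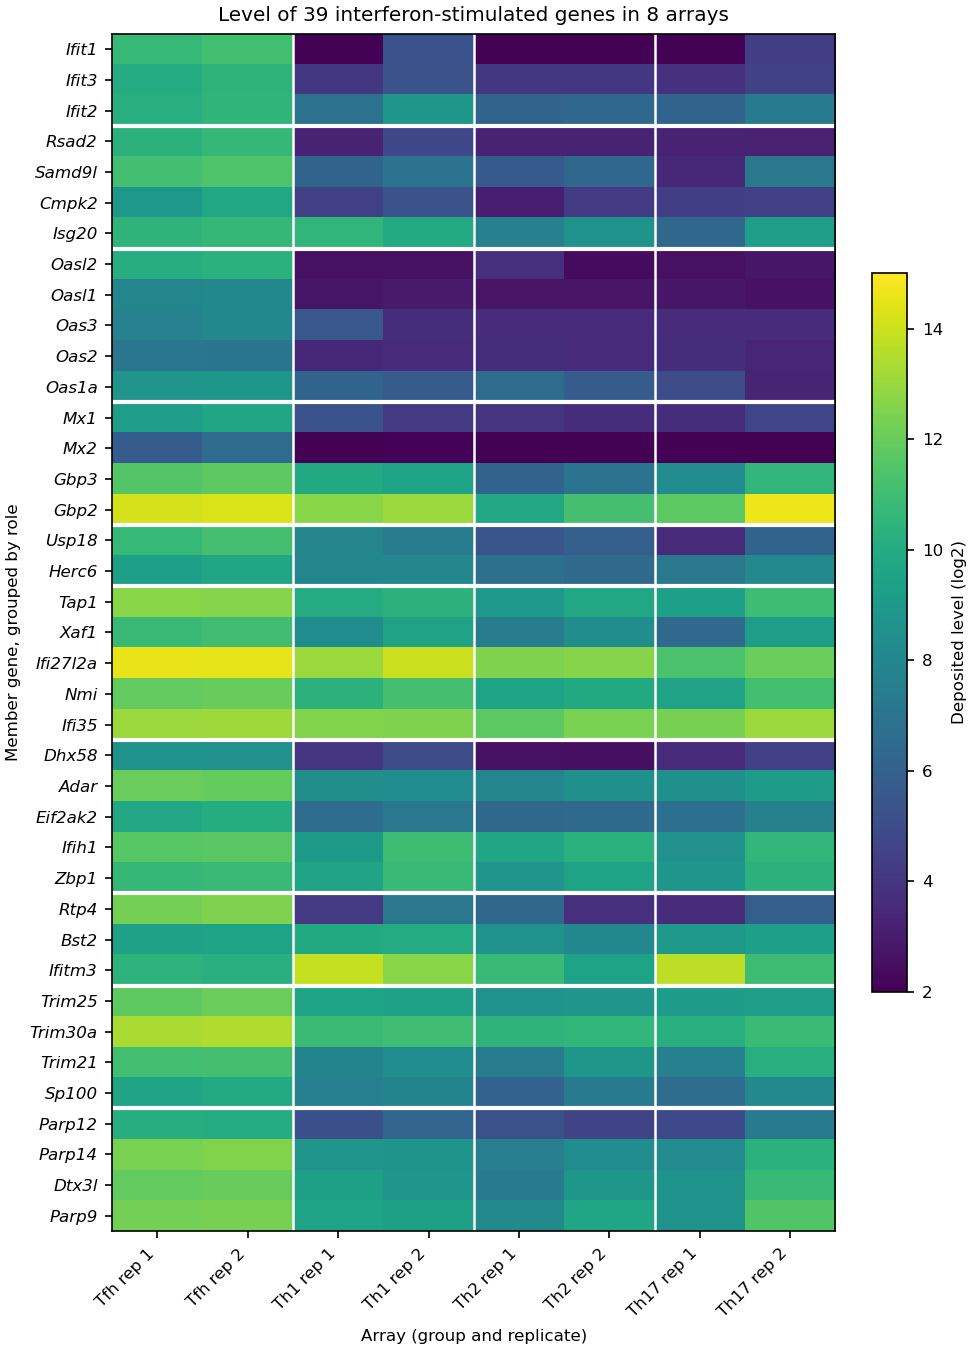
Deposited log2 level (colour) of the 39 members (rows, grouped by role, white lines between roles) in the 8 arrays (columns, 2 per group). The Tfh columns are brighter for most rows, Ifitm3 is brighter in Th1 and in Th17 replicate 1, and the Th17 columns differ from each other.

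The genes of the RNA-binding IFIT proteins and of the oligoadenylate synthetase family were called higher in Tfh without exception among the members. Of all tested genes 43.7% were called higher. Several enzymes of the oligoadenylate synthetase family activate the nuclease RNase L. Ifit1, which binds viral RNA with a foreign cap, stood at 10.71 and 11.08 in Tfh, against 2.10 and 5.26 in Th1, 2.09 and 2.08 in Th2 and 2.09 and 4.36 in Th17. Both Tfh arrays were far above the rest, and among the cultures the second arrays of Th1 and Th17 alone left the bottom of the scale. The difference from the cultured mean was 7.90 (SE 0.94, limma adjusted p = 0.00065), the largest among the 39 members, or 7.06 relative to the median gene. Its neighbour Ifit3, of the same family, had 9.99 and 10.48 in Tfh, against 4.11 and 5.32 in Th1, 4.11 and 4.12 in Th2 and 3.85 and 4.57 in Th17, a difference of 5.89 (SE 0.38). The same arrays, Th1 replicate 2 and Th17 replicate 2, were the higher ones of their pairs. Ifit2 was higher by 3.36 (SE 0.59).

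Of the oligoadenylate synthetase genes, Oasl2, a relative that carries ubiquitin-like domains, had 10.08 and 10.31 in Tfh, against 2.56 and 2.59 in Th1, 3.77 and 2.38 in Th2 and 2.56 and 2.77 in Th17. Its neighbour Oasl1, known in mice as a brake on Irf7 translation, had 7.95 and 8.09 in Tfh, against 2.72 and 2.96 in Th1, 2.70 and 2.69 in Th2 and 2.77 and 2.65 in Th17. Both genes sat near the bottom of the scale on nearly all cultured arrays and did not follow Ifit1 into Th17 replicate 2. The differences were 7.42 (SE 0.35) for Oasl2 and 5.27 (SE 0.10, limma adjusted p = 6.67e-07) for Oasl1. The enzymes Oas3, Oas2 and Oas1a were higher by 3.96, 3.52 and 3.40. Oas3 stood at 5.55 in Th1 replicate 1 and at 3.56 to 3.68 in the other cultured arrays.

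Genes of nucleotide and RNA metabolism rose in the main. Rsad2 encodes viperin, which makes a chain-terminating nucleotide, and had 10.37 and 10.68 in Tfh, against 3.23 and 4.75 in Th1, 3.25 and 3.22 in Th2 and 3.24 and 3.21 in Th17. The difference was 7.04 (SE 0.39). Cmpk2, a nucleotide kinase gene next to Rsad2 on chromosome 12, was higher by 5.02 (SE 0.44). Samd9l, a growth-restraining antiviral factor, had 11.11 and 11.41 in Tfh, against 6.18 and 6.93 in Th1, 5.70 and 6.37 in Th2 and 3.43 and 7.22 in Th17, a difference of 5.29 (SE 0.95). Its Th17 arrays were the lowest and the highest of the 6 cultured ones. Isg20, an exonuclease gene, had 10.46 and 10.64 in Tfh, against 10.55 and 9.95 in Th1, 7.68 and 8.64 in Th2 and 6.38 and 9.30 in Th17. The Tfh and Th1 arrays overlapped, and the difference from the cultured mean (1.80, SE 0.76) was not called (limma adjusted p = 0.0763), though it was without Th17 replicate 1 (0.0188) or 2 (0.00289).

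The dynamin-like GTPase genes were called and the guanylate-binding protein genes in part. Mx1 had 9.25 and 9.70 in Tfh, against 5.30 and 4.19 in Th1, 3.95 and 3.71 in Th2 and 3.71 and 4.71 in Th17, a difference of 5.21 (SE 0.40); C57BL/6 mice are known to carry a defective Mx1 allele. Mx2 had 5.80 and 6.57 in Tfh, against 2.08 and 2.11 in Th1, 2.08 and 2.07 in Th2 and 2.08 and 2.06 in Th17. Mx2 and Oasl1 were the 2 members whose 6 cultured arrays all lay under 3.13, the median of all deposited values, where the scale has little room downward. Gbp3 was higher in Tfh by 3.09 (SE 0.60). Gbp2, which attacks the membranes around intracellular microbes, had 14.17 and 14.27 in Tfh, against 12.67 and 13.06 in Th1, 9.83 and 11.18 in Th2 and 11.70 and 14.66 in Th17. Th17 replicate 2 exceeded both Tfh arrays, and the difference of 2.03 (SE 0.79) was not called (limma adjusted p = 0.0594); it was without Th17 replicate 1 (0.0206) or 2 (0.00385).

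The ISG15 cycle was seen through its protease and its ligase. Usp18, which removes ISG15 from proteins and damps the type I receptor, had 10.73 and 11.18 in Tfh, against 7.93 and 7.50 in Th1, 5.41 and 5.92 in Th2 and 3.61 and 6.20 in Th17, a difference of 4.85 (SE 0.66). The Tfh, Th1 and Th2 arrays fell in that order without overlap, and the Th17 arrays lay on either side of Th2. Herc6, the main mouse ligase for ISG15, had 9.35 and 9.63 in Tfh on its most abundant probe set, against 7.99 and 8.04 in Th1, 6.78 and 6.51 in Th2 and 7.21 and 8.13 in Th17. The difference for Herc6 was 2.05 (SE 0.27), and it fell under 1 log2 unit after the median shift (0.85) and quantile normalization (0.94).

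Of 5 nucleic acid sensors and RNA-binding enzymes 3 were called higher in Tfh, against 43.7% of all tested genes. Dhx58, which encodes LGP2, a regulator of RNA sensing, had 8.68 and 8.59 in Tfh, against 4.06 and 4.99 in Th1, 2.56 and 2.53 in Th2 and 3.57 and 4.48 in Th17, a difference of 4.94 (SE 0.33). Adar, the enzyme that edits adenosine to inosine in double-stranded RNA, had 12.05 and 11.95 in Tfh, against 8.44 and 8.31 in Th1, 7.98 and 8.52 in Th2 and 8.51 and 9.14 in Th17, a difference of 3.52 (SE 0.22). Eif2ak2, the RNA-activated kinase PKR, was higher by 3.05 (SE 0.29). Ifih1, the long-RNA sensor MDA5, and Zbp1, a sensor of left-handed nucleic acid, were not called (1.78, SE 0.68 and 1.10, SE 0.50); without Th17 replicate 2 both were, by 2.11 and 1.35, and without Th1 replicate 2 Ifih1 was, by 2.09. For Zbp1 a second probe set gave 3.79 and was called when it was the one used (limma adjusted p = 0.00069), so its 2 probe sets disagree on size.

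The PARP group and the TRIM group were called higher in Tfh for every member, against 43.7% of all tested genes. Parp12, a zinc-finger ADP-ribosyltransferase gene, had 10.09 and 10.07 in Tfh, against 5.19 and 6.26 in Th1, 5.21 and 4.69 in Th2 and 4.89 and 7.35 in Th17 (4.48 higher, SE 0.67). Parp14 had 12.37 and 12.53 in Tfh, against 8.80 and 8.74 in Th1, 7.57 and 8.30 in Th2 and 8.29 and 10.31 in Th17 (3.78 higher, SE 0.53). Parp9 had 12.26 and 12.32 in Tfh, against 9.56 and 9.41 in Th1, 8.11 and 9.64 in Th2 and 8.67 and 11.49 in Th17 (2.81 higher, SE 0.78). Parp14, Dtx3l and Parp9 are neighbours on chromosome 16, the last 2 encode partners in one complex, and all 3 were highest among the cultures in Th17 replicate 2. The call for Dtx3l was lost after the median shift, and that for Parp9 without either Tfh array (limma adjusted p = 0.0935 and 0.0982) and after both other scalings.

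Of the TRIM genes, Trim25, a ligase that aids RNA sensing, had 11.77 and 12.02 in Tfh, against 9.54 and 9.43 in Th1, 8.64 and 8.76 in Th2 and 9.17 and 9.29 in Th17. On this probe set the arrays of each type lay close together and the 4 types did not overlap. On another Trim25 probe set Th1 (7.03 and 7.88) and Th17 (7.48 and 6.86) overlapped, and on the remaining one the types stayed apart. Trim30a, a mouse TRIM gene that restrains innate signalling, had 13.33 and 13.46 in Tfh, against 10.87 and 11.02 in Th1, 10.48 and 10.61 in Th2 and 10.21 and 10.86 in Th17. The differences were 2.75 (SE 0.11) and 2.72 (SE 0.18). Trim21, a receptor for antibody inside the cell, and Sp100, a nuclear body protein gene, were higher by 2.71 and 2.47, calls that were lost after both other scalings. Further probe sets gave 2.50 for Trim21 and 4.54 for Sp100, so those of Sp100 disagree on size. Without Tfh replicate 2 the calls for Trim21, Sp100, Dtx3l and Nmi were lost, and without Tfh replicate 1 those for Trim21 and Nmi.

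Among the remaining members, Tap1, a subunit of the peptide transporter for class I presentation, had 12.68 and 12.62 in Tfh, against 10.00 and 10.34 in Th1, 8.91 and 9.76 in Th2 and 9.36 and 10.94 in Th17 (2.77 higher, SE 0.44). Xaf1, a gene linked to cell death, had 10.80 and 10.99 in Tfh, against 8.34 and 9.48 in Th1, 7.45 and 8.38 in Th2 and 6.45 and 9.27 in Th17 (2.66 higher, SE 0.77). The Xaf1 call was lost without Tfh replicate 1 (limma adjusted p = 0.0984) or 2 (0.116), after quantile normalization (1.73, 0.101) and after the median shift (1.47, 0.14). Ifi27l2a, a small mitochondrial protein gene, and Nmi, a partner of STAT factors, were higher by 1.95 and 1.67; the Ifi27l2a call was lost after the median shift and the Nmi call after both other scalings. Ifi35, the partner of Nmi, was 0.68 higher, under the fold threshold.

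Of 3 genes of membrane proteins and receptor transport 1 was called higher in Tfh, against 43.7% of all tested genes. Rtp4, a receptor chaperone gene, had 12.27 and 12.48 in Tfh, against 4.21 and 7.16 in Th1, 6.32 and 3.74 in Th2 and 3.66 and 5.92 in Th17, a difference of 7.20 (SE 1.10). Ifitm3, which blocks viral entry at membranes, had 10.42 and 10.26 in Tfh, against 13.88 and 12.69 in Th1, 10.83 and 9.54 in Th2 and 13.70 and 10.94 in Th17. The Tfh values lay inside the Th2 range and under all Th1 and Th17 arrays. Ifitm3 was the 1 member called lower in Tfh in any comparison, against Th1 (-2.95, SE 0.96, limma adjusted p = 0.0372), a call lost without either Tfh array (0.117 and 0.132), either Th1 array (0.154 and 0.057) or Th2 replicate 1 (0.0501). Bst2, which encodes tetherin, had 9.46 and 9.55 in Tfh, against 9.88 and 10.02 in Th1, 8.70 and 8.07 in Th2 and 9.05 and 9.33 in Th17. Tfh stood between Th1 and Th17, and the difference from the cultured mean (0.33, SE 0.19) turned to -0.74 after quantile normalization and -0.86 after the median shift.

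**Figure D2:**
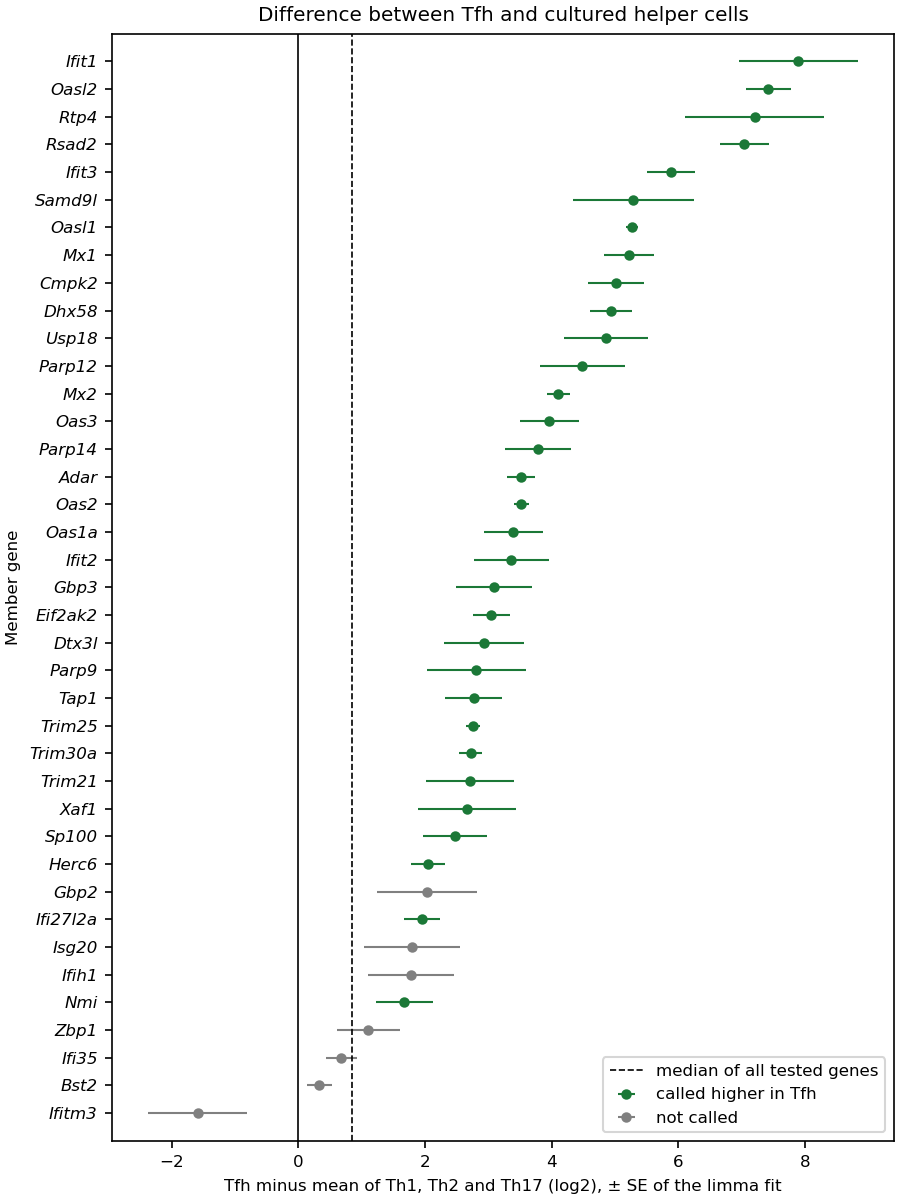
Difference between Tfh and the mean of Th1, Th2 and Th17 in log2 units (points, ± SE of the limma fit over 8 arrays) for the 39 members, with the median of all tested genes as a dashed line at 0.84. The 32 called members run up to 7.90 for Ifit1, and Ifitm3, at -1.59, is the single one below 0.

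Against single cultured types, 29 members were called higher in Tfh than in Th1, against 42.8% of all tested genes, and 1 lower, against 6.16%. Against Th2 the counts were 35 (42.8% of all tested genes) and 0 (6.89%), and against Th17 31 (41.8%) and 0 (6.17%). In both comparisons 0 were lower at an unadjusted p under 0.05 in limma as well. The 3 comparisons share the Tfh arrays. Their median member differences were 2.86 against Th1, 3.71 against Th2 and 3.03 against Th17, and 27 members were called higher against all 3, against 35.4% of all tested genes.

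Markers of other cell types also differed between Tfh and the cultures, and their part in these differences was not tested. These calls are read against the 43.7% of all tested genes called higher and the 6.66% called lower, and sums are given in the order of the replicates. The sums hold the whole-array shift. Relative to the median gene, the median tested neutrophil marker was 8.42 higher in Tfh than in the cultured mean. That value was 0.25 for monocytes, macrophages and dendritic cells, 1.7 for B cells and 0.06 for plasmacytoid dendritic cells. It was -0.56 for CD8 and NK cells and 0.28 for T cells. The 8 neutrophil markers were all called higher in Tfh, with log2 levels summing to 93.9 and 93.4 in Tfh, against 19.5 and 20.0 in Th1, 44.5 and 19.55 in Th2 and 26.1 and 19.3 in Th17. The 10 markers of monocytes, macrophages and dendritic cells summed to 63.4 and 63.7 in Tfh, against 24.8 and 39.4 in Th1, 76.7 and 50.5 in Th2 and 68.5 and 46.7 in Th17, and 1 of 9 tested was called higher and 1 lower. The 7 B cell markers summed to 41.5 and 41.6 in Tfh, against 20.7 and 28.1 in Th1, 31.1 and 41 in Th2 and 38.3 and 29.2 in Th17, with 3 of 5 tested called higher. The 7 markers of plasmacytoid dendritic cells, known producers of type I interferon, summed to 34.6 and 33.45 in Tfh, against 26.4 to 27.5 in the cultures. Of 5 tested, 2 were called higher, by 2.40 and 6.08 and in all 3 scalings, and 1 was called lower (-2.32). Their marker Siglech lay between 1.93 and 2.06 on every array and was not tested. The 6 CD8 and NK cell markers summed to 31.3 and 31.5 in Tfh, against 36.8 and 34.8 in Th1, 30.4 and 24.45 in Th2 and 24.5 and 30.5 in Th17, and 1 of 5 tested was called higher. The 7 T cell markers summed to 92.0 and 91.5 in Tfh, against 85.2 and 83.9 in Th1, 78.4 and 80.9 in Th2 and 82.2 and 84.3 in Th17. All 7 were tested, and 4 were called higher in Tfh and 0 lower. In bulk samples such as these, fewer cells of a type and less RNA per cell cannot be told apart.

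Within Th17 the 2 arrays differed widely in these genes. Replicate 2 stood above replicate 1 by a median gap of 1.00 log2 unit, against -0.02 for all tested genes. It was the higher array for 32 of 39 members, against 45.3% of all tested genes, a count that Tfh shared at far smaller gaps (32 of 39, against 39.2%, median gap 0.16), with 26 in Th1 (55.2%) and 24 in Th2 (42.7%). At least 1 log2 unit separated them upward for 19 members, against 5.53% of all tested genes, and downward for 2, against 6.45%. In Th1 9 members stood at least 1 unit higher in replicate 2 (6.04% of all tested genes) and 3 lower (6.8%), and in Th2 6 higher (2.25%) and 3 lower (3.98%), with median gaps of 0.24 and 0.13. In Tfh no member differed by 1 unit, as for nearly all tested genes (0.0626% higher and 0.0358% lower). Each gap is between 1 array and 1 array, so none has a test.

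The widest Th17 gaps belonged to Samd9l (3.79), Gbp2 (2.96), Isg20 (2.92), Parp9 (2.83) and Xaf1 (2.82), followed by Usp18 (2.59), Parp12 (2.46), Trim21 (2.45), Gbp3 (2.31) and Ifit1 (2.27). Effectors of several kinds thus stood higher together in replicate 2. Gaps within 0.31 of 0 belonged to Rsad2 (-0.03), Cmpk2 (0.03), Mx2 (-0.02), Oas3 (-0.01), Oasl1 (-0.12), Oas2 (-0.31) and Oasl2 (0.20), which lay under 5 on both Th17 arrays, and to Trim25 (0.12) and Bst2 (0.28), which lay above 9 on both. The exceptions downward were Ifitm3 (-2.75) and Oas1a, at 4.97 in replicate 1 and 3.36 in replicate 2 (-1.61). Ifitm3 was lower in replicate 2 of Th1 and Th2 too, with gaps of -1.18 and -1.28.

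**Figure D3:**
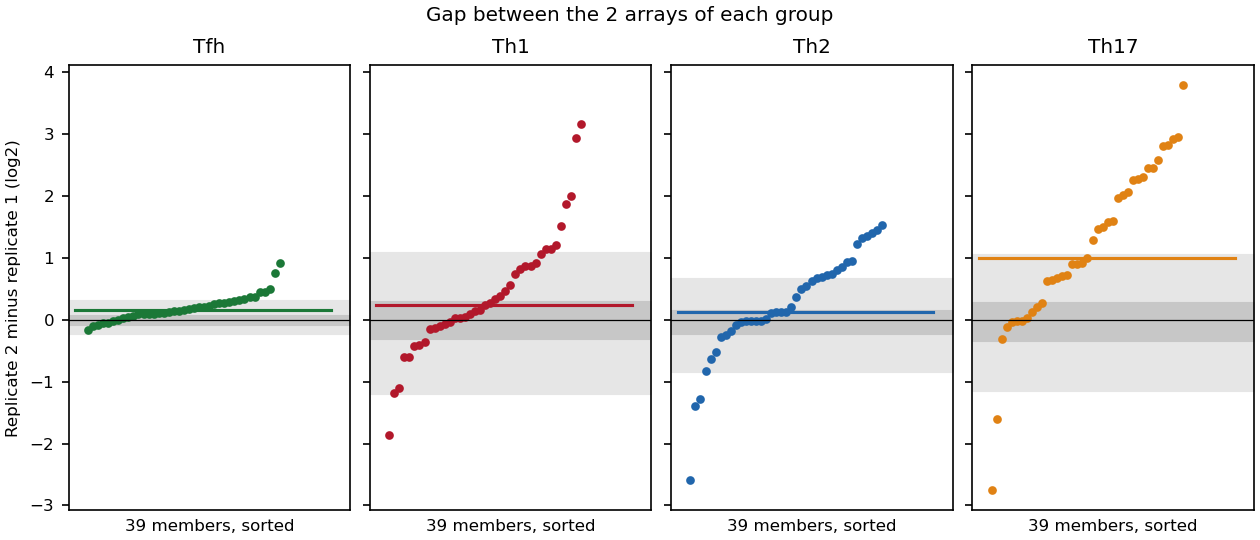
Replicate 2 minus replicate 1 in log2 units for the 39 members (points, sorted) in each group, with their median as a coloured line and the middle 50% and 90% of all tested genes as dark and light grey bands. The Th17 panel has its median at 1.00 and 19 points at 1 or above, against 9 in Th1, 6 in Th2 and 0 in Tfh.

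Other genes moved between the Th17 arrays as well. Of 19 tested genes known to be induced by interferon-gamma and outside the members, 18 were higher in replicate 2, 12 of them by at least 1 log2 unit, with a median gap of 1.54. The counts here are read against all 11178 tested genes. Of these 45.3% were higher in replicate 2, 5.53% by at least 1 log2 unit. Lower in replicate 2 were 6112 genes, and 6.45% of all were lower by at least 1 unit. Chosen after the values were seen, Iigp1, an immunity-related GTPase gene, had 5.39 in replicate 1 and 12.25 in replicate 2, and Irf1, a transcription factor of the interferon-gamma response, had 8.97 and 11.79. Ifng itself went the other way, with 13.30 in replicate 1 and 10.72 in replicate 2. Myeloid and dendritic cell markers were lower in replicate 2 for 9 of 9 tested genes (median gap -1.89) and B cell markers for 5 of 5 (-1.85), while T cell markers were higher for 5 of 7 (0.54) and CD8 and NK cell markers for 4 of 5 (1.01). The 8 neutrophil markers were all lower in replicate 2, 2 of them by at least 1 log2 unit (median gap -0.01). Of these markers 6 lay under 3.13 in replicate 1 and 8 in replicate 2. The part of all these cell type markers in the gap was not tested.

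**Figure D4:**
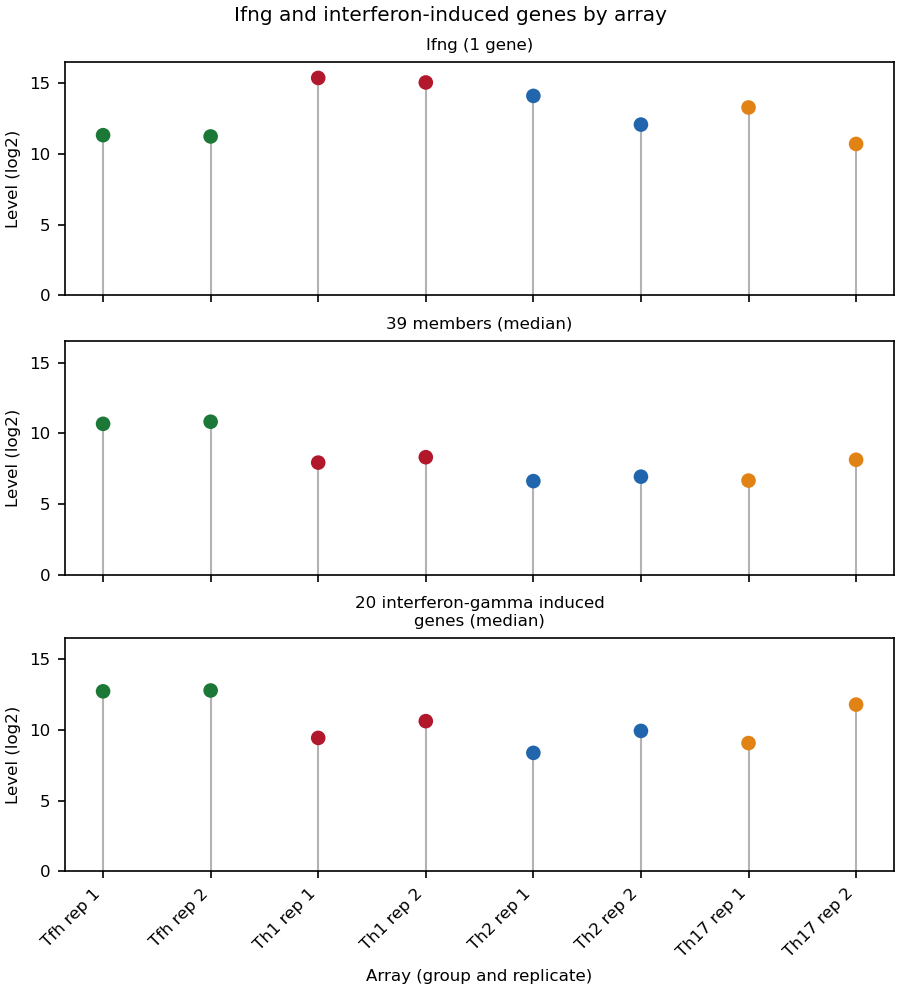
Log2 level by array of Ifng (top), the median of the 39 members (middle) and the median of 20 other interferon-gamma induced genes (bottom). Th17 replicate 2 has the lowest Ifng level, 10.72, and the highest median of the induced genes among the cultures, 11.8.

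Set side by side over the arrays, Ifng and its known targets did not run in parallel. Ifng stood at 11.34 and 11.25 in Tfh, 15.39 and 15.07 in Th1, 14.12 and 12.09 in Th2 and 13.30 and 10.72 in Th17. The median of the 20 induced genes was 12.7 and 12.8 in Tfh, 9.43 and 10.6 in Th1, 8.37 and 9.93 in Th2 and 9.07 and 11.8 in Th17. The median member was 10.7 and 10.8 in Tfh, 7.93 and 8.31 in Th1, 6.62 and 6.93 in Th2 and 6.66 and 8.13 in Th17. Replicate 1 held the higher Ifng level and the lower medians in every cultured pair. Ifng was 2.15 lower in Tfh than in the cultured mean (SE 0.79), a difference that missed the threshold (limma adjusted p = 0.0507) and passed it in 8 of the alternatives.

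Between cultured types few differences passed, and the replicate gaps of Th17 enter every fit. Th1 exceeded Th2 for most members: both Th1 arrays lay above both Th2 arrays for 24 of 39 members, against 25.0% of all tested genes, and below them for 0, against 18.4%. The median member was 0.83 higher in Th1, against 0.02 for all tested genes. The single call was Bst2 (1.56, SE 0.24, limma adjusted p = 0.0497), or 1 of 39 members against 0.349% of all tested genes, with 0 lower (0.895%); 8 members were higher and 0 lower at an unadjusted p under 0.05. The largest differences were in Gbp3 (3.19, SE 0.74), Ifitm3 (3.10, SE 0.96) and Gbp2 (2.36, SE 0.97). When either Th17 array was left out, which leaves the difference between Th1 and Th2 as it was, Gbp3 and Herc6 were called and Bst2 was not. The limma adjusted p for Bst2 lay between 0.0381 and 0.257 over its alternatives.

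The Th17 group has no single level for these genes. Replicate 1 lay below both Th1 arrays for 31 of 39 members, against 31.2% of all tested genes, and replicate 2 lay above both Th1 arrays for 15, against 30.7%, and above both Th2 arrays for 31, against 39.3%. Among the 6 cultured arrays the highest was Th1 replicate 2 for 16 members (24.0% of all tested genes), Th17 replicate 2 for 14 (18.3%), Th1 replicate 1 for 6 (15.6%), Th2 replicate 1 for 3 (13.5%) and Th2 replicate 2 or Th17 replicate 1 for 0 (11.1% and 17.4%). The lowest was Th2 replicate 1 for 14 members (13.7%), Th17 replicate 1 for 12 (14.8%), Th2 replicate 2 for 8 (17.2%), Th17 replicate 2 for 5 (21.3%) and a Th1 array for 0 (17.3% and 15.8%). Replicate 2 exceeded replicate 1 in all 3 cultured types for 15 members, against 14.5% of all tested genes. The members led by Th1 replicate 2 included all 3 Ifit genes, Rsad2, Cmpk2, Dhx58, Ifih1 and Rtp4, and those led by Th17 replicate 2 included both Gbp genes, all 4 genes of the PARP group, Tap1 and Trim21. No member was called between Th17 and Th1 in limma (0 higher, against 0.0805% of all tested genes, and 0 lower, against 0.0626%), nor between Th17 and Th2 (0 higher, against 0.188%, and 0 lower, against 0.483%). At an unadjusted p under 0.05 0 members were higher and 5 lower in Th17 than in Th1, and 6 higher and 2 lower in Th17 than in Th2. Single arrays changed this: Gbp3 was called higher in Th17 than in Th2 without Th17 replicate 1 (4.06, limma adjusted p = 0.025), Usp18 lower in Th17 than in Th1 without Th17 replicate 2 (-4.10, 0.0381), and Oas3 lower in Th17 than in Th1 (-1.89, 0.0441) and higher in Th1 than in Th2 (1.95, 0.0235) without Th1 replicate 2.

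Genes upstream of the members are read against the 43.7% of all tested genes called higher in Tfh, the 6.66% called lower and the 14.3% called higher in all 3 scalings. Of 12 tested transducers and transcription factors 12 were called higher, 7 of them in all 3 scalings. Irf7, which drives late type I interferon genes, had 10.08 and 10.17 in Tfh, against 3.79 and 4.58 in Th1, 3.79 and 3.78 in Th2 and 3.59 and 4.98 in Th17 (6.04 higher, SE 0.40). Stat2 and Irf9, whose products bind at the ISRE, were higher by 3.72 (SE 0.64) and 3.13 (SE 0.26). In the cultures Stat2 ran from 4.37 in Th2 replicate 1 to 7.32 in Th17 replicate 2.

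Of 9 tested ligands and receptors 7 were called higher, 3 of them in all 3 scalings, 1 lower and 1 neither. The type I receptor subunits Ifnar1 and Ifnar2 were higher by 1.54 (SE 0.13) and 2.25 (SE 0.17), and 0.70 and 1.41 relative to the median gene. Ifngr1, the binding subunit for interferon-gamma, had 10.65 and 10.74 in Tfh, against 9.23 and 8.60 in Th1, 7.00 and 7.48 in Th2 and 7.05 and 8.51 in Th17 (2.71 higher, SE 0.41). Il6ra, a receptor subunit of another cytokine that signals through STAT factors, was higher by 5.26 (SE 0.32). Ifnb1, Ifna2 and Ifna4 lay under 3.13 on all 8 arrays and were not tested. Ifna1, a type I interferon gene read from a probe set shared with related transcripts, had 2.30 and 2.29 in Tfh, against 3.77 to 4.19 in the cultures, and was called lower in Tfh (-1.65, SE 0.11). Its Tfh values lay under 3.13. Untested genes under 3.13 on all arrays also read apart in Tfh. Ifna4 was lower (2.00 and 1.98, against 2.17 to 2.23) and Ifnlr1 higher (2.32 and 2.30, against 2.06 to 2.09). The Ifna1 call may thus not reflect its transcript.

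Of 11 sensors upstream of interferon 7 were called higher, 2 of them in all 3 scalings, 2 lower and 2 neither. Ikbke, a kinase that activates IRF factors, was higher by 4.00 (SE 0.35). Tlr9, the DNA receptor, was lower by 2.98 (SE 0.12), with 2.19 and 2.18 in Tfh, under 3.13, against 4.92 to 5.38 in the cultures. Of 8 negative regulators 5 were called higher, 1 of them in all 3 scalings, and 3 were neither. In this list Nlrc5, better known as the activator of class I genes, was higher by 3.59 (SE 0.555) and Pias1, an inhibitor of cytokine signalling, by 1.89. Of the 19 other interferon-gamma induced genes 11 were called higher, 5 of them in all 3 scalings, 1 lower and 7 neither, with Cxcl9 and Cxcl10, ligands of CXCR3, higher by 5.75 (SE 1.11) and 5.65 (SE 0.68).

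Several members had more than 1 probe set. For 18 members with 28 further probe sets, 26 of the 28 read higher in Tfh, 23 by at least 1 log2 unit, and 6 of the 28 stayed under 5 on all arrays. The whole-array shift, 0.84 for the median tested gene, enters these counts. Probe sets marked as shared by related transcripts served 2 members, Ifi35 and Gbp2, so their values may hold signal from a relative. By Pearson correlation over the 8 arrays, the genes outside the set that ran most like the mean member were Dnajc8 (0.998), Ssbp3 (0.995), Pex19 (0.995), Dennd6a (0.993), Mbp (0.993), Rbm25 (0.992), Faim (0.992) and Fyn (0.992). The arrays share the contrast of Tfh with the cultures, which the correlation mostly reads, and the mean member, centred per gene, was 2.51 and 2.71 in Tfh, -0.61 and -0.19 in Th1, -1.47 and -1.23 in Th2 and -1.46 and -0.27 in Th17.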

How the data were processed

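Total RNA from 8 samples was measured on Affymetrix mouse arrays, with 2 arrays per group. The deposited log2 values were made by the authors with GCRMA, per the submitters' processing notes; its version and which arrays were run together are not stated there. The number of arrays limits the precision.

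Of 45101 probe sets, 34945 carried 1 gene symbol in the platform annotation, 932 several and 9160 none, and 64 were controls. Per gene the probe set with the highest mean was kept (18193 genes); 11178 genes were tested, those whose level passed 3.13, the 50th percentile, in at least 2 arrays. The model (limma 3.58.1, R 4.3.3) gave each group a coefficient and had a variance trend, 4 residual and 1.78 prior degrees of freedom, and two-sided p-values adjusted by Benjamini-Hochberg over all tested genes. The SE is that of the moderated fit. Calls needed an adjusted p under 0.05 and an absolute difference of at least 1. The procedure was tested on simulated data.

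The members and lists were chosen with earlier results of these data known. Members described array by array were the 2 with the largest difference between Tfh and the cultures in each role, the 6 with the widest Th17 gap and those called between cultured types; from each pathway list the 2 called genes with the largest difference were named, with the interferon receptors, Stat2, Irf7, Irf9 and Ifng; also the 8 genes most like the mean member. Alternatives were other scalings, filters, probe set choices and variance models, no fold threshold, a replicate block, each array left out, the Tfh arrays counted as 1, and fits on the compared groups alone. Promoter windows and gene order come from RefSeq tables for GRCm38.p6. Plots were drawn with matplotlib 3.10.9.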

Additional observations from a re-analysis of the deposited data

How the results depend on the processing

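For Tfh against the mean of the cultures, 24 to 35 members were called higher across the scalings, filters, probe set choices, variance model, replicate block and counting of the Tfh arrays as 1, and 26 to 36 with each array left out; 26 of the 32 called members stayed called without each of the 8 arrays in turn. The ranges with an array left out were 20 to 32 against Th1, 27 to 37 against Th2 and 25 to 36 against Th17. The median member difference was 2.21 after quantile normalization and 1.90 after the median shift, and 2.90 to 3.28 with an array left out. The median gene then differed by -0.02 and -0.35 in place of 0.84. The Th17 gap stayed between 1.00 and 1.37. With 0 members called lower in Tfh as deposited, 1 (Ifitm3) was called lower after quantile normalization, the median shift and the replicate block, and 0 to 1 with an array left out. After the median shift Ifi35 turned to -0.52, Zbp1 to -0.091 and Bst2 to -0.86 (-0.74 after quantile normalization) against the cultured mean, Ifi27l2a to -0.18 against Th1, and Ifi35 to -0.17 and Bst2 to -0.092 against Th2. The 1 call between Th1 and Th2 became 0 after quantile normalization, with no filter, the probe set of highest variance, no trend, the replicate block, the Tfh arrays as 1 and the compared groups alone, and 0 to 2 with an array left out. With an array left out, 0 to 1 members were called higher in Th17 than in Th2 and 0 to 0 higher in Th17 than in Th1, where 1 was called lower without Th1 replicate 2 (Oas3) and 1 without Th17 replicate 2 (Usp18). The causes were not tested.

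The labels do not say whether replicate numbers pair the samples, and the correlations do not settle it. Deviations of same-numbered arrays correlated at 0.255 (Th1 and Th17) and 0.268 (Th2 and Th17) but at 0.0044 for Th1 and Th2. Over the members alone the correlations were 0.319, 0.485 and -0.149 in that order. With the replicate block the count of members higher in Tfh was 35 against the cultured mean, 33 against Th1, 37 against Th2 and 34 against Th17; Gbp2 (limma adjusted p = 0.0273), Ifih1 (0.0167) and Zbp1 (0.0178) passed the threshold, and Ifng (0.0198) was called lower. Low values sit on a floor set by background correction, which limits differences of members that are low in the cultures.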
